A study of Mus musculus with 10 samples.

Results

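The 46 genes described here encode the machinery of mitosis: the cyclins, kinases and phosphatases that start it, the spindle checkpoint, the chromosomal passenger complex, kinetochore proteins, spindle motors, cytokinesis proteins, chromosome structure proteins and the factors that end it. They were picked by name from the gene names printed on a mouse Agilent array that carries 28034 names, and Cdk1 was found under its older symbol Cdc2a. Each gene is represented by its brightest probe in the comparison at hand, and 27 of the 46 genes have more than 1 probe. The study measured RNA on 10 arrays from mouse small intestine and asked, as its labels imply, what is lost 1 day after the R-spondin receptors Lgr4 and Lgr5 are deleted or after R-spondin is taken away. Isolated crypts labelled as Lgr4_Lgr5 double ko, taken on day 1 after deletion, were hybridised directly against wt control crypts in 2 biological replicates, each on 2 arrays with the dyes swapped. The design text gives the deleted mice as AhCre Lgr4fl/fl Lgr5fl/fl, whereas the extraction protocol names the Cre driver P450Cre. AhCre is a Cre transgene under a Cyp1a1 promoter that needs an inducer, and the labels do not say whether the wt mice received it. Organoids of VillinCre_Lgr4fl/fl-Lgr5fl/fl small intestine on day 1 after deletion (2 cultures) were set against VillinCre_wt organoids given tamoxifen for 1 day (2 cultures). VillinCre is driven by a promoter active in intestinal epithelium. Small-intestinal organoids kept without R-spondin for 1 day, in medium with EGF and Noggin (EN), were set against organoids with EGF, Noggin and R-spondin (ENR), 1 culture each, of a mouse line that the labels do not name. All organoid RNA was labelled with Cy5 and hybridised beside a Stratagene mouse reference RNA in Cy3.

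Mitosis genes are transcribed late in the cell cycle, in G2 and M phase, so their RNA in a tissue reports mainly on the cells that are dividing. In the small intestine these are the Lgr5+ stem cells at the crypt base and the transit-amplifying cells above them, both of which depend on Wnt signals that R-spondins strengthen by binding Lgr4 and Lgr5. Many of these genes are held silent in resting cells by the DREAM complex and switched on by the MuvB core with B-MYB and FOXM1, which act through a promoter element called the cell cycle genes homology region (CHR), often beside CCAAT boxes that bind NF-Y.

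After R-spondin withdrawal every measured mitosis gene had a lower signal: 43 of 43 genes were below the culture with R-spondin, and 42 of them by at least 1 on the log2 scale, where a difference of 1 is a 2-fold difference. The median change was -2.05, and the lowest were Ect2 (-2.96), a cytokinesis factor, and Top2a (-2.91), a DNA topoisomerase. Of all 17634 genes measured in that comparison, 7.08% were lower by at least 1 and 5.49% were higher by at least 1. Lgr4 and Lgr5 deletion gave smaller differences of the same sign, with a median of -0.45 over 45 genes in organoids and of -0.40 over 45 genes in crypts, and the difference in size from the unreplicated withdrawal was not tested. No mitosis gene passed limma's test in either deletion comparison after Benjamini-Hochberg adjustment over all genes, and the smallest adjusted p was 0.430 in organoids and 0.238 in crypts. The test called few genes of any kind: 0% of 12221 genes lower and 0.0491% higher in crypts, and 0.00751% of 13318 genes lower and 0.03% higher in organoids. In bulk RNA, fewer dividing cells and less mitotic RNA per dividing cell cannot be told apart.

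**Figure D1:**
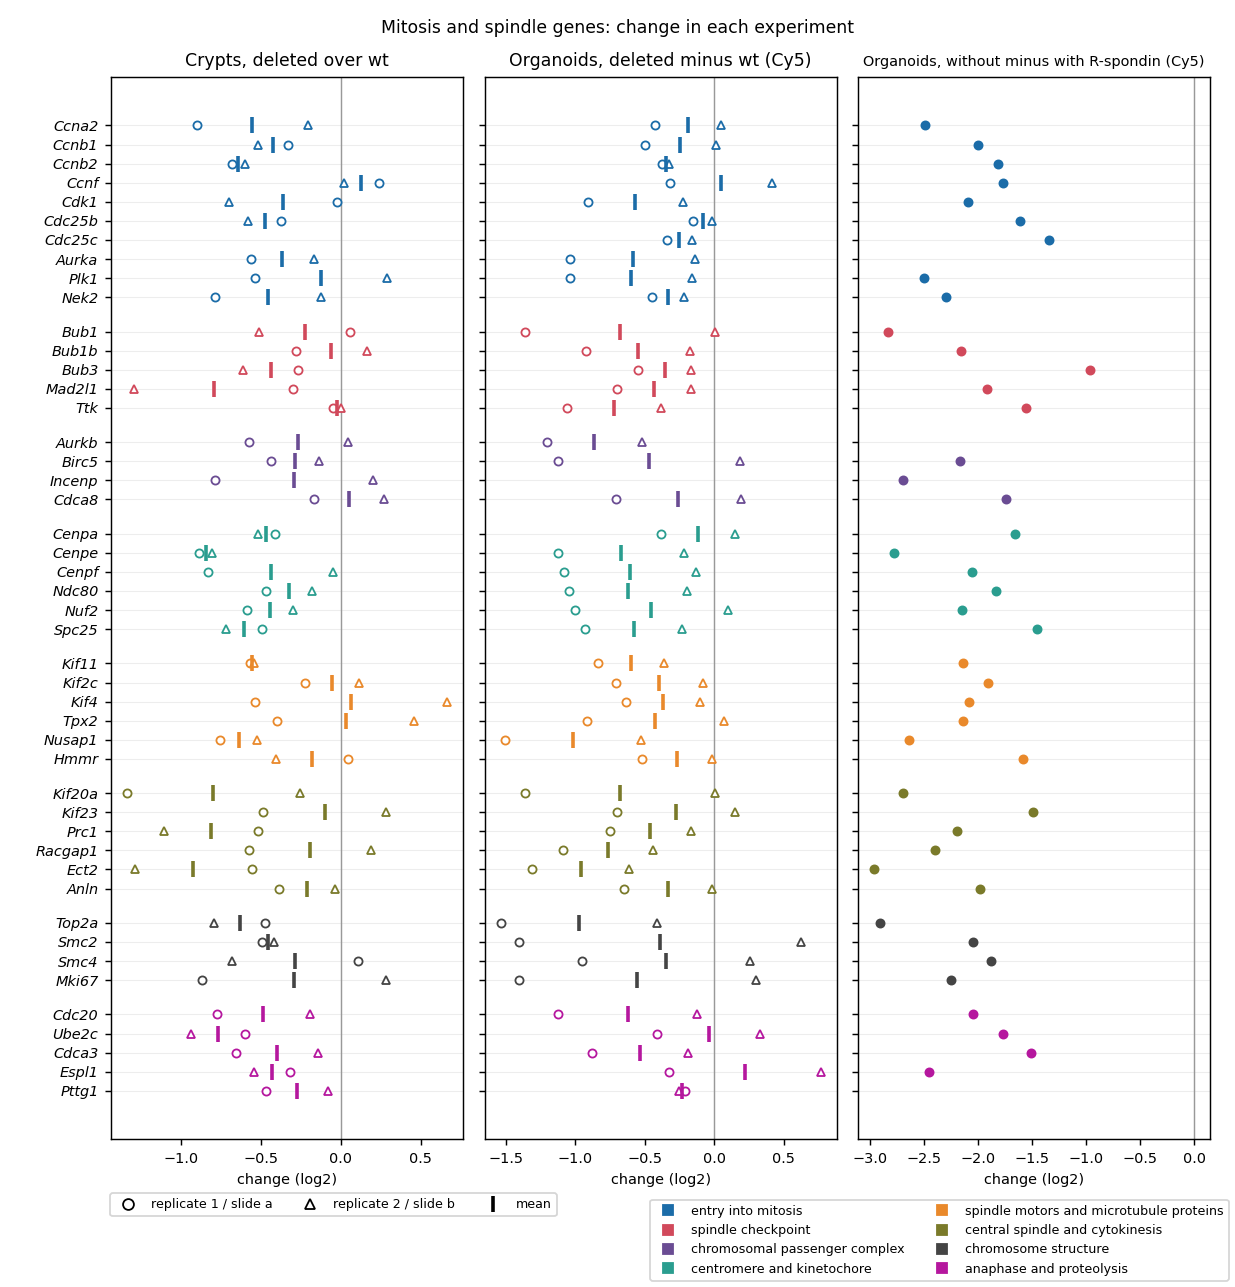
Change of each mitosis and spindle gene on the log2 scale (horizontal axis), one row per gene and coloured by role, in crypts (left, deleted over wt, circles replicate 1, triangles replicate 2), deleted minus wt organoids (middle, Cy5, circles slide a, triangles slide b) and organoids without minus with R-spondin (right, Cy5, 1 culture each); vertical bars are means. In the right panel all 43 measured genes lie below 0, while in the left and middle panels 41 of 45 and 43 of 45 means lie below 0 and the 2 replicates often differ.

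The promoter windows of 6 of the genes are shown because they include the 3 genes with the lowest changes in deleted organoids (Nusap1, Top2a, Ect2) and 3 central regulators of mitotic entry (Cdk1, Plk1, Ccnb1). Sequences are RefSeq windows on GRCm38.p6 from 250 bases before to 50 after the annotated gene start, written 5′ to 3′ on the strand of the gene, with every CHR (TTTGAA, or TTCAAA on the other strand) and every NF-Y box (CCAAT, or ATTGG on the other strand) in capitals. The Cdk1 window is chr10:69352863-69353162 on the minus strand, and that of Plk1 is chr7:122159185-122159484 on the plus strand. The windows of Ccnb1 (chr13:100786437-100786736), Ect2 (chr3:27153829-27154128) and Top2a (chr11:99024140-99024439) are on the minus strand, and that of Nusap1 (chr2:119618048-119618347) is on the plus strand.
Cdk1: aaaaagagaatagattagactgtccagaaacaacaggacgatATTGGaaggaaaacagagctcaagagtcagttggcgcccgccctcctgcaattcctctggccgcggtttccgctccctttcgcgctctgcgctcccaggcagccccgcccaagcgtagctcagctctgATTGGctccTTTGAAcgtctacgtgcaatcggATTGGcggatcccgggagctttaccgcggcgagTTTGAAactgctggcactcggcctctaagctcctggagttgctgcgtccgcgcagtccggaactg
Plk1: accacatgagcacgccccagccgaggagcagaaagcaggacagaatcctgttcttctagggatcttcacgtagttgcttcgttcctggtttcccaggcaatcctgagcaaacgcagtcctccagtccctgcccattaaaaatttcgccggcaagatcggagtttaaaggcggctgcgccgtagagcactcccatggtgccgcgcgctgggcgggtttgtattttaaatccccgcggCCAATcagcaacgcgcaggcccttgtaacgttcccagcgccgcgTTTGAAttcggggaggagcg
Ccnb1: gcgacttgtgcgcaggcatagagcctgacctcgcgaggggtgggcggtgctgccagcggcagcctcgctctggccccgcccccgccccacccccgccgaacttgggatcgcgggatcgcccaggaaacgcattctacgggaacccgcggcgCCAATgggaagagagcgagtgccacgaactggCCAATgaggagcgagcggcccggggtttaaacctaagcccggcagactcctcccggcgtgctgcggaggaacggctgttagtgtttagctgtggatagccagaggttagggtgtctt
Ect2: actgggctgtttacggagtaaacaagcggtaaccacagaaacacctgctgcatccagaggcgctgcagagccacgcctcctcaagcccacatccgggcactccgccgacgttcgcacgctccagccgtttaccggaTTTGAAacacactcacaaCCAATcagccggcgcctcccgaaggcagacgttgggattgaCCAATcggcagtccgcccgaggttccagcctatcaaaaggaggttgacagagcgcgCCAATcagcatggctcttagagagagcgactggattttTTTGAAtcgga
Top2a: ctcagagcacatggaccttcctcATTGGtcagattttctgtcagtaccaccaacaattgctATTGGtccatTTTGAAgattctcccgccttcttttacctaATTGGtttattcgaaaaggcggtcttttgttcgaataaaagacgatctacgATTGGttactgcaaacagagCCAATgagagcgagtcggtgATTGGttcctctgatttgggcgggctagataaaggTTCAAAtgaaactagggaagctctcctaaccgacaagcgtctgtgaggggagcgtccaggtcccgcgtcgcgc
Nusap1: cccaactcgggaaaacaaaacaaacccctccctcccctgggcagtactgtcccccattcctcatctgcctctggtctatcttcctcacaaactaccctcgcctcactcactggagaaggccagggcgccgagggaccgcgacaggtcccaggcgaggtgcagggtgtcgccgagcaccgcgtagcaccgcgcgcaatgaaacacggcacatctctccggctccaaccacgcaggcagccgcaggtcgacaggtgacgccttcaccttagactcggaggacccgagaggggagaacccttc
Cdk1 and Ect2 each had 2 CHR and 3 CCAAT matches, Top2a had 2 CHR and 6 CCAAT matches, and Plk1 had 1 of each. Ccnb1 had 2 CCAAT matches and no TTTGAA on either strand, the only form of the CHR searched. The Nusap1 window held neither set of letters.

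The table of promoters had an entry for 39 of the 46 genes and not for Ccna2, Cdc25c, Aurkb, Incenp, Tpx2, Kif20a and Smc4. For Bub3, Prc1 and Ect2, which have more than 1 entry, the first was used. A CHR was present in 29 of the 39 windows (74.4%), against 18.1% of 27025 mouse gene windows of the same length. CCAAT was present in 31 windows (79.5%), all with a match before the gene start, against 37.9% of all windows, and 26 windows (66.7%) held both motifs, against 7.12%. A CHR and a CCAAT match overlapped in 1 member window. A CHR within 60 bases before the start or in the 50 bases after it was present in 27 of the 39 windows (69.2%), against 5.46% of all windows. Of the windows that held a CHR anywhere, 93.1% of the 29 mitosis gene windows had one in that stretch, against 30.2% of all 4893. The share with a CHR was 40% of 85 windows of other mitosis genes (kinetochore, spindle, cytokinesis, condensin, cohesin and anaphase-promoting complex genes outside the 46) and 15.8% of 38 windows of S phase genes. Mad2l1, Birc5, Nuf2, Nusap1 and Pttg1 had neither motif. A match describes the letters of the window and not a bound site.

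**Figure D2:**
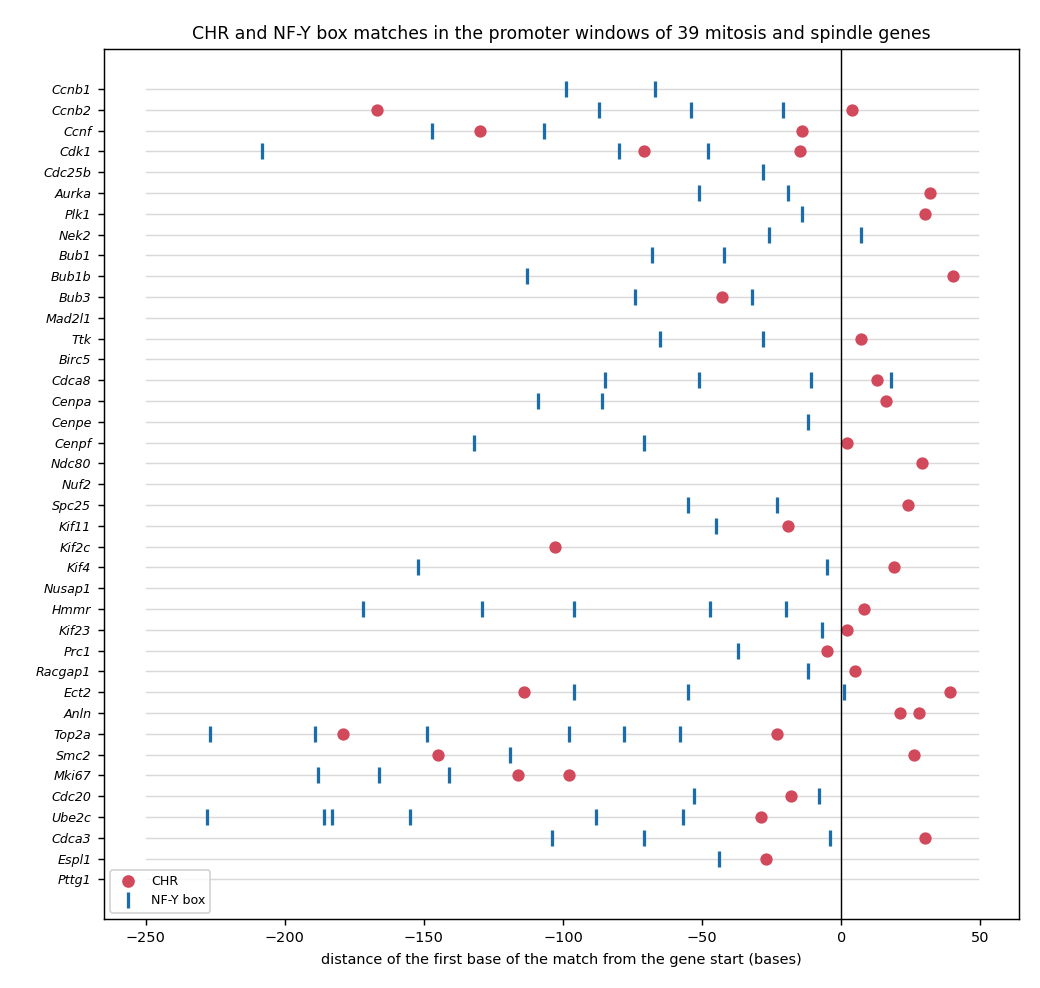
Positions of CHR matches (dots) and NF-Y box matches (vertical ticks) in the promoter windows of 39 mitosis and spindle genes, one row per gene; the horizontal axis is the distance of the first base of the match from the gene start in bases, from 250 before to 50 after it. CHR matches lie within 60 bases before the start or after it in 27 genes, while each of the 31 genes with an NF-Y box has a match before the start.

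The targeted genes and the arrays themselves bear on what follows. Lgr4 and Lgr5 in deleted over wt crypts had log2 ratios of -1.56 (limma adjusted p = 0.0889) and -1.68 (adjusted p = 0.0881), and Lgr4 had Cy5 signals of 7.33 and 8.16 in deleted organoids, against 11.00 and 11.63 in wt organoids. Lgr5 was not well above background in either deleted organoid culture (6.15 and 6.29), against 9.94 in wt culture 1 and a spot marked as an outlier in wt culture 2. On the R-spondin arrays Lgr5 read 6.44 without and 12.80 with R-spondin. The Cy3 channel of the 4 deletion organoid arrays, which held the reference RNA, had negative-control medians of 5883 to 6564 units, against 92.0 to 117 units on the other 6 arrays, and only 3.66% to 4.26% of its gene spots were well above background. The organoid results are therefore given first from the Cy5 channel alone, normalized between arrays, with the ratio to the reference beside it. In Cy5, the share of gene spots well above background ranged over 46.9% to 50.7% for the deletion organoids, 62.2% to 63.1% for the organoids without and with R-spondin, and 40.2% to 56.9% for the crypts. The 6 genes that passed the test as higher in deleted crypts, named here after their values were seen, were Cbr3 (4.97), Akr1b8 (4.45), Gsta3 (3.69), Cyp1a1 (3.66), BC064078 (3.15) and Ces1g (3.09). Several of these encode enzymes of foreign-compound metabolism, and receptor loss and the induction of Cre cannot be told apart in the crypts.

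In crypts, 41 of 45 mitosis genes lay below 0, against 52.4% of all 12221 genes, and the median of all genes was -0.02. Both replicates were below 0 for 29 genes (33.1% of all genes), both were above 0 for Ccnf alone, and the replicates had opposite signs for the other 15. Without adjustment, 11 mitosis genes had p under 0.05 on the lower side and 0 on the higher side, where 7.3% and 6.43% of all genes did. The median was -0.49 in replicate 1 and -0.20 in replicate 2. With each array centred on its median in place of loess, the median over the genes was -0.18 and 12 of them changed sign, among them Plk1, Bub1, Birc5 and Mki67. Of the 32 genes measured on all 4 arrays, 13 were below 0 on each of them, against 17.4% of genes. The other 13 genes were measured on 3 arrays. For Ccna2, Ccnb2, Incenp, Cdca8, Cenpe, Kif20a, Prc1, Smc4, Cdc20 and Cdca3, replicate 1 rests on the array with deleted RNA in Cy5 alone. The median over the mitosis genes was -0.65 on that array and -0.29 on its dye swap. Markers of other cell types also had shifted values in deleted crypts, none past the adjusted test. All 16 tested of 18 immune cell markers lay above 0, with a median of 1.75, their summed signal was 31900 to 148000 units in deleted crypts and 9240 to 25600 units in wt crypts, and 16 to 18 of them were above background in deleted crypts, against 14 to 17 in wt crypts. On the array with the most markers above background, Cd79a, a B cell receptor chain, was among them in deleted but not in wt crypts. It was also above background in the organoids without and with R-spondin. The 10 tested enterocyte markers of 12 had a median of 0.59 and the 8 stem cell markers a median of -1.13. All 6 tested of 8 Paneth cell markers lay below 0, with a median of -0.97, and their summed signal was 256000 to 724000 units in deleted crypts and 657000 to 1100000 units in wt crypts. In deleted organoids by Cy5 all 7 tested Paneth cell markers lay below 0, with a median of -0.74. Pla2g2a was above background in wt cultures only, so it entered the 7 only through the wt group. The Paneth median was -0.34 within slide a and -1.34 within slide b. Culture 1 minus culture 2 gave -1.90 among the wt and -0.96 among the deleted organoids. The 6 tested of 12 stroma and muscle markers had a median of -0.45 in crypts, the 2 tested of 6 endothelium markers one of -0.19, and the 2 tested of 5 erythroid markers one of 0.99, with 1.90 in replicate 1 and 0.09 in replicate 2. The epithelial markers that define the tissue (Epcam, Cdh1, Vil1 and 7 others) were all above background in both groups. The part of these shifts in the mitosis gene values was not tested.

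In organoids by Cy5, 43 of 45 mitosis genes lay below 0, against 47.5% of all 13318 genes, and only Ccnf and Espl1 lay above it. Both deleted cultures were below both wt cultures for 23 genes (18.5% of all genes), and the reverse held for none of the 45. Without adjustment, 6 genes had p under 0.05 on the lower side and 0 on the higher side, where 4.26% and 3.48% of all genes did. The labels call the second sample of each kind a biological replicate without saying what differed, so p-values measure the spread between these samples only. The 2 slides, each holding 1 deleted and 1 wt culture, differed: the median was -0.91 within slide a, where all 45 genes were below 0, and -0.13 within slide b, where 29 were. Culture 1 minus culture 2 gave a median of -0.43 among the deleted and 0.37 among the wt organoids, so that differences within a group were about as large as the difference between groups. Without deleted culture 1 the median was -0.26. Of the 18 immune markers 9 were tested in organoids, their median was -0.03, and their summed signal was 328 to 499 units in deleted and 365 to 566 units in wt cultures. Cd3d, Cd3g, Cd8a and Ptprc were above background in no culture. Stem cell markers had a median of -1.59, and 6 of the 8 were above background in deleted cultures, against 8 in wt cultures. Enterocyte markers had a median of 0.47, with 0.48 within slide a and 0.51 within slide b. By the ratio to the reference these were 0.20 and -0.16. The enterocyte summed signal was 69000 to 101000 units in deleted and 70000 to 109000 units in wt cultures.

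**Figure D3:**
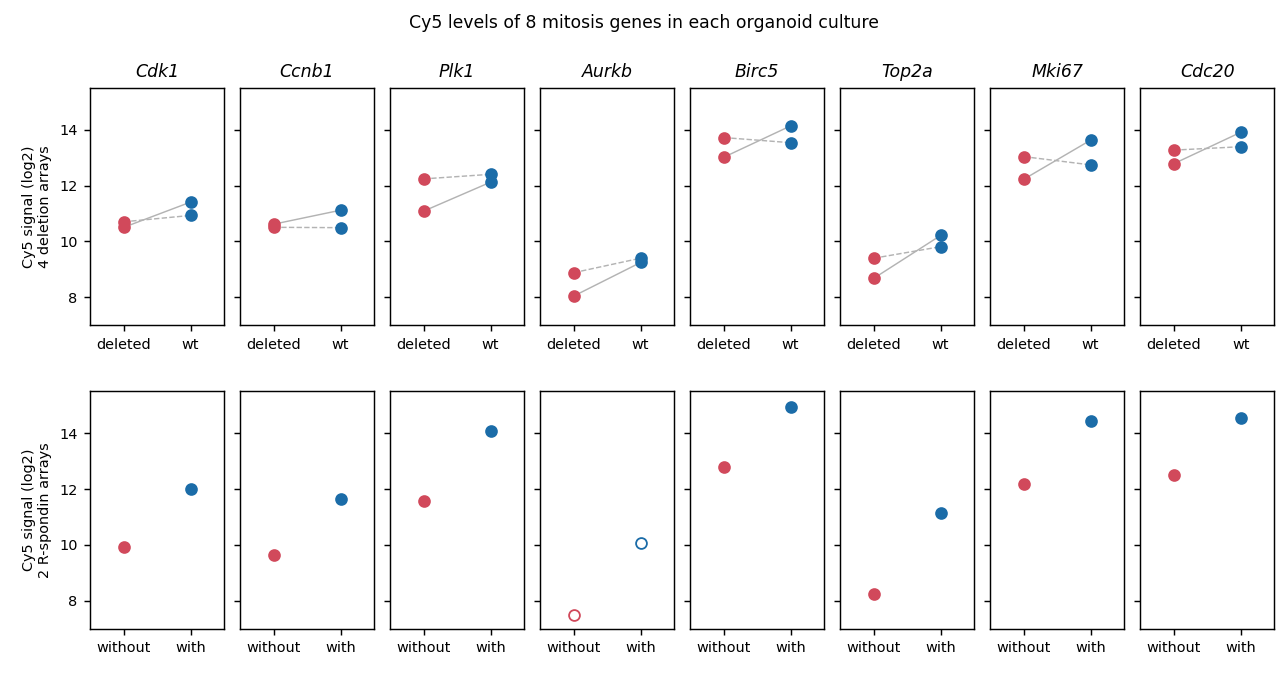
Normalized Cy5 signal on the log2 scale (vertical axis) of 8 mitosis genes in each organoid culture; top row, deleted and wt cultures, with solid lines joining the cultures of slide a and dashed lines those of slide b; bottom row, the culture without and the culture with R-spondin, open symbols for Aurkb, whose spot was marked as an outlier. In the bottom row the point without R-spondin is lower for all 8 genes, and in the top row both deleted cultures are below both wt cultures for Cdk1, Aurkb, Top2a and Cdc20.

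Entry into mitosis is driven by cyclin B and Cdk1, the kinase that phosphorylates most mitotic targets, and by Plk1, which helps to activate it. Cdk1 read 10.50 and 10.70 in deleted organoids, against 11.41 and 10.93 in wt organoids, and 9.92 without against 12.01 with R-spondin. Both deleted cultures were below both wt cultures, and the fitted change was -0.57 ± 0.26 (SE, n = 2 each; limma adjusted p = 0.668). In crypts the Cdk1 ratio was -0.023 in replicate 1 and -0.70 in replicate 2, so that the mean of -0.36 came mainly from replicate 2. Ccnb1, the cyclin B1 gene, read 10.61 and 10.50 in deleted organoids, against 11.12 and 10.49 in wt organoids, which overlap at their low end, and its tested probes disagreed in sign there. Its values were 9.64 without and 11.64 with R-spondin, and -0.33 and -0.52 in the 2 crypt replicates. Plk1 read 11.08 and 12.24 in deleted organoids, against 12.12 and 12.40 in wt organoids, and 11.58 without against 14.08 with R-spondin. Its deletion values overlap, and its crypt ratios had opposite signs (-0.54 and 0.29). Plk1 had the lowest change of the 10 entry genes in organoids after deletion (-0.60) and after withdrawal (-2.50). Ccnb2, a second B-type cyclin, was the lowest of them in crypts, at -0.68 in replicate 1, from its Cy5 array alone, and -0.60 in replicate 2. Ccnf, which encodes an F-box protein of a ubiquitin ligase, was the highest in both deletion comparisons: its crypt ratios were 0.24 and 0.016, and its signals 7.75 and 8.07 in deleted organoids against 8.07 and 7.66 in wt organoids. The highest change after withdrawal was that of Cdc25c, a phosphatase that activates Cdk1, at 7.38 without and 8.72 with R-spondin, and this gene was not well above background in crypts. Over the group, medians were -2.0 after withdrawal, -0.29 in deleted organoids and -0.42 in crypts. Ccna2 (-2.50) and Nek2 (-2.30) were among the lower ones after withdrawal, and Cdc25b (-1.61) was among the higher ones. The Aurka spot was marked as an outlier on an R-spondin array, and with marked spots kept, a choice made after the data were seen, it read 11.51 without and 13.88 with R-spondin.

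The spindle checkpoint delays anaphase until every kinetochore is attached. Bub1, a kinase that recruits the other checkpoint proteins, read 7.94 without and 10.77 with R-spondin, the lowest change of the 5 checkpoint genes (-2.83), while its other tested, dimmer probe had a change of -0.11 by Cy5 and 0.14 by ratio. Bub3, its binding partner, read 12.88 without and 13.84 with R-spondin and was the only one of the 43 genes lower by less than 1 (-0.96). Ttk, the Mps1 kinase at the top of the checkpoint, had the lowest change of the 5 in deleted organoids, 6.79 and 7.10 against 7.85 and 7.49 in wt organoids, and the groups did not overlap. In crypts Ttk was near 0 in both replicates (-0.047 and 0.0026), and it was above background on 3 of 4 arrays in deleted crypts. Bub3 was the highest of the 5 in deleted organoids, at 12.01 and 12.44 against 12.55 and 12.60 in wt organoids. Mad2l1, which encodes the inhibitor of Cdc20, was the lowest in crypts, with -0.30 in replicate 1 and -1.29 in replicate 2. Bub1 and Bub1b had crypt replicates of opposite sign, and the tested probes of Bub1 disagreed in sign in both deletion comparisons. Medians of the group were -1.92 after withdrawal, -0.55 in deleted organoids and -0.23 in crypts.

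The chromosomal passenger complex corrects wrong attachments and consists of the kinase Aurkb with Incenp, Birc5 (survivin) and Cdca8 (borealin). Aurkb read 8.04 and 8.88 in deleted organoids, against 9.24 and 9.40 in wt organoids, with no overlap and a change of -0.86 ± 0.32 (SE, n = 2 each; limma adjusted p = 0.595). Its crypt ratios were -0.58 and 0.044. On the R-spondin arrays its spot was marked as an outlier, and with marked spots kept it read 7.48 without and 10.08 with R-spondin. Birc5 read 13.01 and 13.72 in deleted organoids, against 14.14 and 13.54 in wt organoids, so that the groups overlap. It read 12.79 without and 14.95 with R-spondin, and its crypt ratios were -0.43 and -0.14. Incenp had the lowest change of the complex after withdrawal, at 12.29 without and 14.98 with R-spondin. In deleted organoids it had marked spots, and with those kept it read 11.80 and 13.17, against 12.98 and 13.39 in wt organoids. In crypts Incenp was the lowest of the 4 by a small margin, with replicates of opposite sign (-0.79 and 0.20). Cdca8 had the highest change of the measured members in all 3 experiments: 13.13 without and 14.87 with R-spondin, 8.68 and 8.94 in deleted against 9.40 and 8.75 in wt organoids, and crypt ratios of -0.17 and 0.27. The deletion organoid values of Cdca8 come from a different, dimmer probe than the other values, because the brightest had marked spots there. Its tested probes disagreed in sign in crypts. Medians were -2.16 after withdrawal, -0.47 in deleted organoids and -0.28 in crypts.

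Centromere and kinetochore proteins link chromosomes to spindle microtubules. Cenpe, a kinetochore motor, had the lowest change of the 6 in all 3 experiments. It read 11.95 and 12.47 in deleted organoids, against 13.07 and 12.68 in wt organoids, and 11.23 without against 14.00 with R-spondin. The deleted cultures were both below the wt cultures. Its crypt ratios were -0.89 and -0.80, which agreed closely, although replicate 1 rests on the array with deleted RNA in Cy5 alone. The fitted change of -0.84 ± 0.22 (SE, n = 2) had the smallest adjusted p of any mitosis gene in crypts (limma, 0.238). Its other tested, dimmer probes differed, with crypt changes of -0.062 and -1.12. The first of these had a change of -0.21 in deleted organoids by Cy5, where the second was not tested. Cenpa, the centromeric histone H3 variant, was the highest in deleted organoids, at 9.30 and 9.46 against 9.68 and 9.31 in wt organoids, which overlap. Spc25, a subunit of the Ndc80 complex, was the highest after withdrawal, at 9.28 without and 10.74 with R-spondin. Ndc80, the subunit that binds microtubules, was the highest in crypts, with ratios of -0.47 and -0.18. All 6 genes were below 0 in both crypt replicates. Medians were -1.94 after withdrawal, -0.60 in deleted organoids and -0.46 in crypts.

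The spindle motors and microtubule proteins include Kif11, which slides antiparallel microtubules apart, and Tpx2, which activates Aurora A on the spindle. Nusap1, a protein that bundles spindle microtubules and whose promoter window held neither motif, had the lowest change of the 6 in all 3 experiments. It read 10.00 and 10.52 in deleted organoids, against 11.51 and 11.05 in wt organoids, and 9.17 without against 11.81 with R-spondin. The deleted cultures were both below the wt cultures, and the change of -1.02 ± 0.29 (SE, n = 2 each; limma adjusted p = 0.470) was the lowest of all 45 genes in organoids. Its crypt ratios were -0.76 and -0.52, but the arrays of replicate 1 read 0.089 with deleted RNA in Cy3 and -1.60 with it in Cy5. The medians of the group on these arrays were 0.05 and -0.69. Hmmr, which encodes a spindle-associated hyaluronan receptor, was the highest in both organoid experiments. It read 9.76 and 9.59 in deleted organoids, against 10.28 and 9.61 in wt organoids, with overlap near the lower values, and 8.68 without against 10.26 with R-spondin. In crypts the highest was Kif4, a chromosome-bound kinesin, whose replicates were of opposite sign (-0.53 and 0.67). Kif11 (-0.57 and -0.54) was the only other gene of the group below 0 in both crypt replicates. Medians were -2.11 after withdrawal, -0.41 in deleted organoids and -0.12 in crypts.

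The central spindle and cytokinesis genes had the lowest median of the 8 role groups after withdrawal (-2.30) and in crypts (-0.50), and one of -0.57 in deleted organoids. Ect2, the exchange factor that activates RhoA at the division plane, had the lowest change of the 6 in all 3 experiments and of the 45 mitosis genes tested in crypts and the 43 measured after withdrawal. It read 10.35 and 10.61 in deleted organoids, against 11.66 and 11.23 in wt organoids, and 9.59 without against 12.55 with R-spondin. The deleted and wt values were well separated, and the change of -0.96 ± 0.25 (SE, n = 2 each) had the smallest adjusted p of any mitosis gene in organoids (limma, 0.430). In crypts its ratios were -0.56 and -1.29. The replicate 1 arrays read -0.039 with deleted RNA in Cy3 and -1.08 with it in Cy5, and replicate 2 rests on its Cy5 array alone. Its other tested, dimmer probe had smaller changes: -0.30 in crypts, -0.27 in deleted organoids by Cy5 and -1.35 after withdrawal. The rank of Ect2 therefore depends on the probe. Kif23, a kinesin of the centralspindlin complex, was the highest of the group in all 3 experiments. It read 9.49 and 10.01 in deleted organoids, against 10.19 and 9.86 in wt organoids, 9.53 without against 11.02 with R-spondin, and -0.48 and 0.28 in the crypt replicates. Its deletion values overlap in organoids and differ in sign in crypts. The other changes after withdrawal were -2.69 for Kif20a, -2.40 for Racgap1, the partner of Kif23 in centralspindlin, -2.20 for Prc1, which crosslinks midzone microtubules, and -1.98 for Anln.

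Among the chromosome structure genes, Top2a, which untangles sister chromatids, had the lowest change in all 3 experiments by brightest probe. It read 8.67 and 9.39 in deleted organoids, against 10.21 and 9.81 in wt organoids, and 8.23 without against 11.14 with R-spondin. No deleted culture reached a wt culture, and the change was -0.98 ± 0.32 (SE, n = 2 each; limma adjusted p = 0.547). Its crypt ratios were -0.47 and -0.80. A dimmer tested probe of Top2a had changes of -1.04 in crypts and -0.31 in deleted organoids by Cy5. Another had -0.52 after withdrawal. Mki67, which encodes the proliferation marker Ki-67, read 12.22 and 13.04 in deleted organoids, against 13.63 and 12.74 in wt organoids, and 12.19 without against 14.43 with R-spondin. Its crypt ratios were -0.87 and 0.28. For Mki67 the deletion values overlap in organoids and differ in sign between crypt replicates, whereas its withdrawal change was -2.25. Smc4, a condensin subunit, was the highest of the 4 in all 3 experiments, at 12.14 and 11.57 in deleted organoids against 13.09 and 11.31 in wt organoids, 10.78 without against 12.66 with R-spondin, and 0.10 and -0.68 in crypts. The wt cultures differed from each other by more than the deleted ones for this gene. Dimmer tested probes of Smc2 had crypt changes of -1.40, -0.67 and -0.26, and that of Smc4 had -0.79. The ranks within this group therefore depend on the probe. Medians were -2.15 after withdrawal, -0.47 in deleted organoids and -0.37 in crypts.

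Anaphase starts when the anaphase-promoting complex with Cdc20 destroys securin (Pttg1) and cyclin B, which frees separase (Espl1). Cdc20 read 12.78 and 13.27 in deleted organoids, against 13.91 and 13.39 in wt organoids, and 12.49 without against 14.54 with R-spondin. The deleted cultures were both below the wt cultures, by a margin of 13.27 against 13.39 at the nearest. Its crypt ratios were -0.77 and -0.20. Espl1 had the highest change of all 45 genes in deleted organoids, at 7.47 and 7.90 against 7.79 and 7.13 in wt organoids, and the lowest of its group after withdrawal, at 7.84 without and 10.30 with R-spondin. Ube2c, the E2 enzyme that starts ubiquitin chains for the complex, was the lowest in crypts, with ratios of -0.60 and -0.94. In deleted organoids Ube2c read 11.15 and 11.49, against 11.56 and 11.16 in wt organoids, so that the groups overlapped. Pttg1 was the highest in crypts (-0.47 and -0.078), and on the R-spondin arrays its marked spot read 12.75 without and 12.99 with R-spondin once marked spots were kept. Cdca3, which triggers the destruction of the Wee1 kinase, was the highest of the genes measured after withdrawal, at 12.03 without and 13.54 with R-spondin. Medians were -1.91 after withdrawal, -0.23 in deleted organoids and -0.43 in crypts.

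By the log2 ratio to the reference RNA, deleted and wt organoids differed less, and so did the targeted gene: Lgr4 had ratios of 1.28 and 1.73 in deleted and 1.88 and 2.30 in wt organoids, a change of -0.59, against one of -3.57 by Cy5. Of 43 mitosis genes tested, 39 were below 0, against 45.5% of all 12890 genes, the median was -0.26, and both deleted cultures were below both wt cultures for 24 (13.6% of all genes). No gene of the array passed the test (0% of 12890 genes in either direction), 5 mitosis genes had unadjusted p under 0.05 on the lower side and 0 on the higher side (1.84% and 2.08% of all genes), and the smallest adjusted p of a mitosis gene was 0.963. From the scanner software's processed signals the median of the ratio changes was -0.04. The medians within slides were -0.39 on slide a and -0.07 on slide b. Ccnf, one of the 2 genes above 0 by Cy5, had the lowest ratio change: -1.01 and -0.78 in deleted organoids, against 0.42 and 0.072 in wt organoids. Cdc25c was the highest of the entry genes, with ratios of 1.45 and 1.78 in deleted and 1.43 and 1.53 in wt organoids, which overlap. Cdk1 had ratios of -0.56 and -0.31 in deleted and -0.11 and -0.25 in wt organoids, again without overlap. For Plk1 they were -1.09 and -0.20 in deleted and -0.28 and 0.049 in wt organoids, and for Ccnb1 they were -1.19 and -1.17 in deleted and -0.84 and -1.35 in wt organoids. Both of these overlapped, as they did by Cy5. Ttk had ratios of 1.14 and 1.89 in deleted and 2.67 and 2.30 in wt organoids, and Mad2l1 had -0.60 and -0.49 in deleted and -0.45 and -0.30 in wt organoids. Each had its deleted cultures below its wt cultures. Aurkb, which was lower in both deleted cultures by Cy5, had ratios of 0.54 and 0.75 in deleted and 0.40 and 0.66 in wt organoids, a change of 0.12 of opposite sign to its Cy5 change. Birc5 had -1.32 and -0.75 in deleted and -0.43 and -0.72 in wt organoids, with no overlap.

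In the other role groups the ratio extremes were as follows. Cenpe had -1.87 and -1.50 in deleted and -0.94 and -1.20 in wt organoids, the groups apart, whereas Cenpa had 0.036 and 0.42 in deleted and 0.30 and 0.024 in wt organoids, the groups overlapping. Kif4 had -1.03 and -0.55 in deleted and 0.13 and -0.37 in wt organoids. Kif2c, a kinesin that takes microtubules apart at their ends, had 0.62 and 0.15 in deleted and 0.52 and 0.43 in wt organoids. The first of these kept the groups apart and the second did not. Kif20a, a cytokinesis kinesin, had -1.81 and -1.26 in deleted and -0.77 and -0.37 in wt organoids, and Anln, which encodes the actin-binding anillin of the cleavage furrow, had 0.49 and 1.43 in deleted and 0.85 and 1.09 in wt organoids. Kif20a was thus lower in both deleted cultures and Anln overlapped. Mki67 had -2.28 and -1.69 in deleted and -1.09 and -1.62 in wt organoids, and Smc2, a condensin subunit, had 0.17 and -0.033 in deleted and 0.012 and -0.19 in wt organoids. Top2a, the lowest of that group by Cy5, had -0.54 and -0.22 in deleted and -0.13 and -0.25 in wt organoids, which overlap. Cdc20 had -1.17 and -0.74 in deleted and -0.30 and -0.57 in wt organoids, apart, and Pttg1 had -1.43 and -1.46 in deleted and -1.43 and -1.39 in wt organoids. The ratio and the Cy5 signal used the same probe for 40 of 43 genes, and tested probes of 1 gene disagreed in sign for 7 of 16 genes by ratio and for 2 of 16 by Cy5. For the withdrawal, where the Cy3 channel was like that of the crypt arrays, the ratio gave a median of -2.04 over 42 genes, 41 of them lower by at least 1 and 0 higher, where 6.49% of 17178 genes were lower and 4.42% higher by that much.

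In the withdrawal comparison, 25 of the 43 mitosis genes were lower by at least 2, a size reached by 1.66% of all genes, and 42 of the 43 were among the lowest 5% of all genes. All 43 were well above background in both cultures as the scanner software marks it. Some signals were still low, such as Ttk (6.67) and Anln (6.80) without R-spondin, where Lgr5, not above background, read 6.44. The immune markers' summed signal was 4240 units without and 4170 units with R-spondin and their median was 0.00 over 15 genes. Stem cell markers summed to 4330 units without and 48300 units with R-spondin, and enterocyte markers had a median of 1.41 over 6 genes. There is no replicate of either culture, so the spread between cultures of 1 kind is unknown here and no p-value is given.

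**Figure D4:**
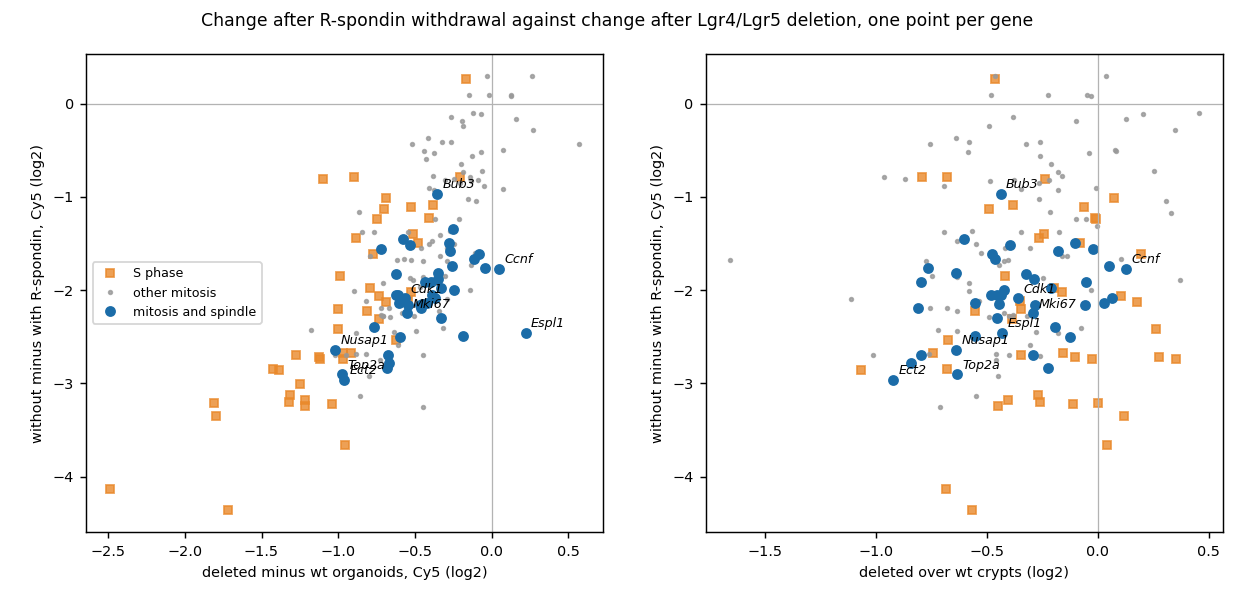
Change after R-spondin withdrawal (vertical axis, without minus with R-spondin, Cy5, log2) against change after deletion (horizontal axis, left deleted minus wt organoids by Cy5, right deleted over wt crypts, log2), one point per gene for the mitosis and spindle genes (blue), other mitosis genes (grey) and S phase genes (orange squares). The mitosis and spindle genes sit between -2.96 and -0.96 on the vertical axis but between -1.02 and 0.22 (left) and -0.92 and 0.13 (right) on the horizontal axes.

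The order of the mitosis genes within the withdrawal comparison bore some likeness to that in deleted organoids. Across the 42 genes measured in both, changes correlated with Pearson's r of 0.49 and Spearman's rho of 0.50, where all 12881 genes gave 0.65 and 0.64. Between crypts and withdrawal the 42 genes gave 0.30 and 0.26, and between crypts and deleted organoids 44 genes gave 0.23 and 0.18. These are descriptions across genes that share arrays, labelling and probe brightness, and genes are not independent replicates. By their brightest probes, Ect2, Top2a and Nusap1 stood near the low end of all 3 comparisons and Kif23, Cdca8 and Ccnf nearer the high end. Of 44 genes tested in crypts and organoids, 17 were below 0 in both crypt replicates and had both deleted organoid cultures below both wt cultures, as did 9.02% of 11390 genes. The difference between the crypt change and the organoid ratio change was tested directly in limma over 11032 genes. None of the 42 mitosis genes passed after adjustment (smallest adjusted p = 0.625), where 4 of all genes did (0.0363%), and 2 of the 42 had unadjusted p under 0.05, where 6.23% of all genes did.

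Other mitosis genes gave a like picture at a smaller size. Of 103 such genes, 101 were measured after withdrawal, with a median of -1.41, and 62 were lower by at least 1, where 7.08% of all genes were. The lowest was Ncapg (-3.25), a condensin subunit, and the highest Stag2 (0.30), a cohesin subunit. In deleted organoids 91 of 99 lay below 0 with a median of -0.38, from Ncapg2 (-1.18) to Cdc16 (0.57), and in crypts 86 of 98 with a median of -0.36, from Knl1 (-1.66) to Wapl (0.46). Of all genes, 47.5% lay below 0 in organoids and 52.4% in crypts. None of the other mitosis genes passed the test in either deletion comparison. On the lower side 13 in organoids and 26 in crypts had unadjusted limma p under 0.05, where 4.26% and 7.3% of all genes did. The S phase genes, which copy the DNA before mitosis, ranked against the mitosis genes differently by experiment, as medians with no test. Their median was -2.31 after withdrawal, with Uhrf1 the lowest (-4.36), and -0.96 in deleted organoids. In the organoids all 45 tested were below 0, and 26 had unadjusted limma p under 0.05 on the lower side (4.26% of all genes). The lowest there was Cdca7 (-2.49). Within slides the S phase medians were -1.35 and -0.50, against -0.91 and -0.13 for the mitosis genes, so that S phase genes were the lower list on each slide. In crypts the order was turned: the S phase median was -0.24, from Dut (-1.07) to Cdc6 (0.35), with -0.43 in replicate 1 and -0.03 in replicate 2, against -0.40 for the mitosis genes. None of the S phase genes passed the test in either deletion comparison.

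**Figure D5:**
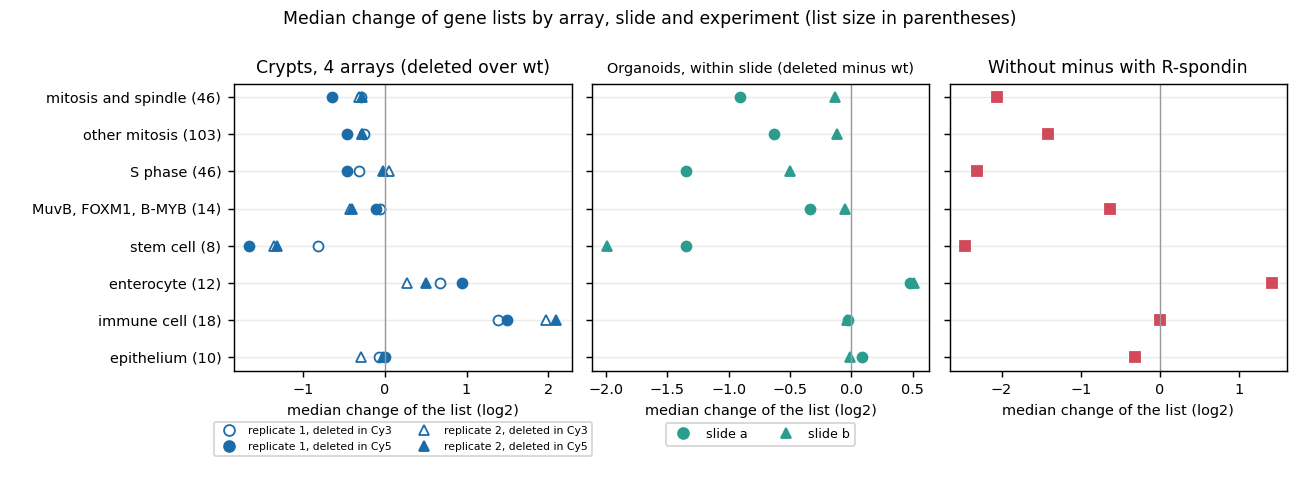
Median change (log2, horizontal axis) of 8 gene lists, one row per list with its size, on each of the 4 crypt arrays (left, circles replicate 1, triangles replicate 2, open with deleted RNA in Cy3, filled in Cy5), within each slide of the deletion organoid arrays (middle) and after R-spondin withdrawal (right). Medians of the mitosis and spindle genes are below 0 on every array and slide shown, immune markers lie at 1.38 to 2.10 on the crypt arrays and near 0 in the organoids, and S phase genes are lower than mitosis genes on both organoid slides.

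Genes of the regulators that act at such promoters had medians nearer 0. The 14 MuvB, FOXM1, B-MYB, E2F and NF-Y genes had a median of -0.63 after withdrawal, from Mybl2 (-2.22), which encodes B-MYB, to Rbl2 (0.41), a DREAM pocket protein. In deleted organoids 13 of them had a median of -0.21, from Rbbp4 (-0.70) to Lin37 (0.27), and in crypts one of -0.29, from Rbbp4 (-1.36) to Nfyc (0.48), with none past the test. The G1 cyclins, kinases and Myc genes had medians of -1.83, -0.54 and -0.37 in the same order of experiments. Their lowest member was Cdk6, a G1 kinase, at -3.33 after withdrawal, -2.16 in deleted organoids and -1.11 in crypts, and their highest were Mycn (0.14), E2f2 (0.75) and Ccnd3 (0.34). The CDK inhibitors ranged in crypts from Cdkn1b (-0.85) to Cdkn1a (1.17), the p21 gene, in deleted organoids from Cdkn2c (-0.69) to Cdkn1a (0.77), and after withdrawal from Cdkn2c (-0.85) to Cdkn1c (1.33).

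Mitosis genes with and without a CHR, counted as TTTGAA on either strand, had close medians. After withdrawal the 28 measured genes with a CHR had a median of -2.01, and the 9 without had one of -2.16. In deleted organoids the medians were -0.54 over 29 genes with and -0.44 over 10 genes without a CHR, and in crypts -0.37 and -0.45. Among the other mitosis genes the withdrawal medians were -1.67 over 32 genes with a CHR, 24 of them lower by at least 1, and -1.04 over 51 genes without, 26 of them lower by at least 1. Over all genes with a window, 11.6% of 1508 with a CHR and 7.78% of 10000 without were lower by at least 1. These are counts of letters and of changes in 1 pair of cultures, with no test.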

How the data were processed

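RNA of 10 mouse small-intestine samples was measured on 2-colour Agilent arrays (45018 spots, 43379 of them gene probes). The deposited scanner files hold spot intensity in both dyes, extracted by the authors with Agilent Feature Extraction 10.5.1.1 per the file headers, or 8.5.1.1 per the submitters' processing notes; those of the deletion organoids give median and the others mean pixel intensity. The deposited value table holds log10 ratios, whose centring is not given in the sources used here, and served as an alternative.

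Intensities were background-corrected in R 4.3.3 with limma 3.58.1 (normexp, offset 50) with outlier-marked spots left out. Ratios were loess-normalized within arrays, dye-swapped crypt arrays were turned to deleted over wt and averaged per replicate, and Cy5 signals were quantile-normalized separately over the 4 deletion and the 2 R-spondin arrays, so that their levels are not comparable across those sets. A probe entered a test if it was well above background as the scanner software marks it, and the brightest probe stood for its gene. lmFit and eBayes tests were two-sided with Benjamini-Hochberg adjustment over all genes and a threshold of 0.05. The R-spondin pair, 1 culture each, has no test, and called there means at least 1 on the log2 scale. The number of arrays limits the precision. Promoter windows and their motifs were read with Python 3.11.15 from RefSeq tables, and figures drawn with matplotlib 3.10.9.

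The genes, role groups and lists were chosen with earlier results of these data known. Values in every sample are given for Ccnb1, Cdk1, Plk1, Aurkb, Top2a, Birc5, Cdc20 and Mki67 and for the member with the lowest and the highest change of each role group in each comparison. The alternatives covered background correction, scaling, filters, probe choice, blocks and leaving out each replicate. Crypt replicates lie on separate slides, and each organoid slide holds 1 deleted and 1 wt culture.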

Additional observations from a re-analysis of the deposited data

How the results depend on the processing

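No mitosis gene passed the test under any of the 11 alternatives in crypts, the 11 by organoid Cy5 or the 9 by organoid ratio. The median over the genes stayed below 0 in each of these, from -0.49 to -0.18 in crypts, -0.66 to -0.26 by Cy5 and -0.42 to -0.04 by ratio, and from -2.11 to -1.80 after withdrawal by Cy5 and -2.18 to -1.80 by ratio, the highest with the mean of a gene's probes (-1.80 by both). The causes of the shifts below were not tested.

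Counts of all genes called lower and higher in crypts were 0 and 6, against 10 and 31 with marked spots kept, 159 and 296 from processed signals, 56 and 282 with median centring (median over the mitosis genes -0.18), 175 and 318 from the deposited log ratios, 20 and 74 with the mean of probes, 256 and 365 with the replicate as a random block over the 4 arrays, 11 and 41 in a fit shared with the organoids, and 0 higher without a filter. By Cy5 they were 1 and 4, against 0 and 1 with marked spots kept, 48 and 40 from processed signals, 0 and 0 without a filter, and 187 and 136 with the slide as a block. By ratio they were 0 and 0, against 7 and 21 from processed signals (median -0.04), 2 and 11 from the deposited log ratios (median -0.035), and the median was -0.42 with median centring. Genes higher by at least 1 after withdrawal numbered 968 by Cy5 and 759 by ratio, against 1734 from processed Cy5 signals and 1248 from the deposited log ratios.

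Without 1 replicate, in fits shared with the organoid ratio arrays, the crypt median was -0.49 to -0.20 with 0 genes called, where the shared fit with both replicates called 11 and 41. The spread there comes from the organoid cultures alone, and the lone crypt replicate is assumed to vary like them. By Cy5 it was -0.66 to -0.26 with 1 to 39 genes lower and 2 to 72 higher, most without wt culture 1. By ratio it was -0.36 to -0.17 with 0 to 125 lower and 0 to 11 higher. In the organoid fits the lone culture of a group is assumed to vary like the other group.

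Signs of single genes turned as follows, by ratio among the 20 of 43 genes whose ratios were recomputed one by one. In crypts with median centring Plk1 was 0.23, Bub1 0.44, Bub1b 0.13, Bub3 0.078, Ttk 0.055, Birc5 0.14, Cdca8 -0.014, Kif2c 0.018, Kif23 0.13, Racgap1 0.021, Mki67 0.13 and Pttg1 0.024. With marked spots kept Bub1b was 0.094, Ttk 0.065, Cdca8 -0.078 and Kif2c 0.15, and with the mean of probes Bub1 was 0.031 and Cdca8 -0.020. Ccnf was -0.074 from processed signals and from the deposited log ratios. By Cy5, Cdc25b was 0.049 and Ube2c 0.12 with median scaling, and Ccnf -0.15 from processed signals. By ratio, processed signals and the deposited log ratios both gave Ccnb1 0.56, Ccnf 0.0027, Cdk1 0.056, Cdc25c -0.073, Plk1 0.0097, Mad2l1 0.15, Aurkb -0.086, Kif2c 0.015, Kif4 0.084 and Pttg1 0.062, and the first also Smc2 -0.041. Median centring gave Cdc25c -0.15, Aurkb -0.68, Cenpa -0.011, Smc2 -0.43 and Pttg1 0.071. In crypts and by ratio, processed signals were read as the scanner software's own log ratios. Their values matched the deposited log ratios for the genes listed with both, so these alternatives are not independent of each other.

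Leaving out 1 crypt replicate gave Plk1 -0.54 to 0.29, Bub1 -0.51 to 0.059, Bub1b -0.28 to 0.16, Ttk -0.047 to 0.0026, Aurkb -0.58 to 0.044, Cdca8 -0.17 to 0.27, Kif2c -0.22 to 0.11, Kif4 -0.53 to 0.67, Tpx2 -0.40 to 0.46, Hmmr -0.41 to 0.047, Kif23 -0.48 to 0.28, Racgap1 -0.58 to 0.19, Smc4 -0.68 to 0.10 and Mki67 -0.87 to 0.28. Leaving out 1 organoid culture gave by Cy5 Ccna2 -0.53 to 0.15, Ccnb1 -0.56 to 0.069, Ccnf -0.16 to 0.25, Cdc25b -0.20 to 0.035, Cdca8 -0.58 to 0.067, Cenpa -0.30 to 0.070, Nuf2 -1.02 to 0.11, Kif4 -0.90 to 0.16, Tpx2 -0.87 to 0.022, Hmmr -0.61 to 0.066, Smc2 -1.27 to 0.49, Smc4 -1.24 to 0.54, Ube2c -0.24 to 0.16 and Espl1 -0.11 to 0.55. By ratio, only 20 of the 43 genes were recomputed one by one, and turns of sign in the other genes are not covered here. Among those 20, leaving out 1 culture gave Ccnb1 -0.33 to 0.18, Cdc25c -0.028 to 0.30, Aurkb -0.011 to 0.24, Cenpa -0.13 to 0.26, Kif2c -0.33 to 0.14 and Anln -0.48 to 0.45.

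The labels do not pair deleted with wt organoid cultures, so these could be paired only by slide. Each slide holds 1 deleted and 1 wt culture, so the fit above with the slide as a block (187 lower and 136 higher by Cy5) compares them paired by slide, and each crypt array holds a deleted and a wt sample. Limits of signal over background touch Cdc25c and Ttk in crypts and Lgr5 in organoids, and Ttk and Anln had low signals without R-spondin.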
